A study of Mus musculus with 32 samples.

Results

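The 10 genes En1, En2, Gbx2, Otx1, Pax2, Pax5, Pax6, Zic1, Zic2 and Ptf1a, transcription factors that pattern the hindbrain and cerebellum, were followed through 14 mouse medulloblastomas. They were chosen by gene symbol from the 37310 genes of the tumor count table, with no measured value in the rule, and all 10 were found. The tumors were 6 GMYC and 8 GTML biopsies. GMYC tumors carried Glt1-tTA and TRE-MYC, and GTML tumors carried the MYCN counterpart driven from the same Glt1 promoter. Both are Tet-OFF systems, in which the transactivator switches on the oncogene in cells that use the Glt1 promoter unless doxycycline is given. The age of the animals was not given in the labels. The question was whether regional identity genes differed between tumors driven by MYC and by MYCN. RNA was read on the Ion Torrent platform as single libraries of whole biopsies, so fewer cells of a type and less RNA per cell cannot be told apart.

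The cerebellum forms from the anterior hindbrain, next to an organizer at the border with the midbrain. Otx2 marks the midbrain side of that border and Gbx2 the hindbrain side, while En1, En2, Pax2 and Pax5 are expressed across it in response to FGF8 and WNT1. Within the cerebellar anlage, Ptf1a specifies GABAergic neurons in the ventricular zone, and Pax6, Zic1 and Zic2 are expressed in the granule cell lineage that comes from the rhombic lip.

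The 6 GMYC libraries held 6218378 to 7279811 counts and the 8 GTML libraries 4602294 to 6317404. A limit of 3 counts corresponded to between 0.412 and 0.652 CPM, the count scaled to the library total, and covers counting error only. Myc and Mycn followed the labels, with log2 fold changes (GTML over GMYC throughout) of -4.63 and 2.79 and no overlap between models. GTML tumor 2 stood apart: its median Spearman's rho across genes was 0.910 against its own model and 0.929 against GMYC. Without it, the log2 fold changes of the expressed factors were 0.19 (En2), 0.78 (Pax6), 0.73 (Zic2) and -1.14 (Zic1), and none was called. In that fit 3264 of the 20936 genes tested were called higher and 3166 lower. The study describes 1 outlier GTML tumor with an SHH-like signature, and its comparison of the models used 7 GTML and 6 GMYC tumors. No label says which tumor that outlier was, and all 8 GTML tumors were kept here. Small nucleolar RNAs took over 0.3% of the counts in GMYC tumors 1 to 4 and GTML tumors 1 and 2, and less in the other 8. No label names this split, but it follows the order in which the samples are listed, and both sides hold both models, so values within each side are given below. The study's methods speak of GTML tumors sequenced earlier and do not say which, so sequencing run could not be used as a term. Neurod1, a neurogenic factor of the granule lineage, was at 185 CPM or more in every tumor. Atoh1, which specifies the rhombic lip, had at most 3 counts in any tumor, so Neurod1 alone is no check of the labelled tissue.

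The 10 factors fell into 4 that were expressed and 6 near the detection limit. En2, Zic2, Pax6 and Zic1 had a CPM above 1 in at least 3 tumors and entered the model fit. En1, Gbx2, Otx1, Pax2, Pax5 and Ptf1a did not. None of the 4 was called at an adjusted p under 0.05 in either direction with edgeR, where 21.2% of the 21024 genes tested were called. At an unadjusted p under 0.05, 1 of the 4, Pax6, was higher in GTML with edgeR, where 20.4% of all genes tested were. DESeq2 also called 0, with 1 higher at the unadjusted threshold (22.3% of all genes), and limma-voom called 0, with 0 at that threshold (18.6%). Over the 21024 genes, DESeq2 called 3305 higher and 2547 lower, and limma-voom 2101 and 2388. On simulated counts edgeR called 32 of 100 genes changed 2-fold and 77 of 100 changed 4-fold, so most 2-fold changes were missed there. Far fewer of the 21024 genes changed in the simulation than were called in the tumors. Its adjusted threshold was therefore stricter, and these rates need not hold for the tumors. By a stricter rule, a change of more than 1 on the log2 scale with an adjusted p under 0.01, 0 of the 4 were called, against 3.22% of the genes tested (2.11% higher and 1.1% lower).

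**Figure D1:**
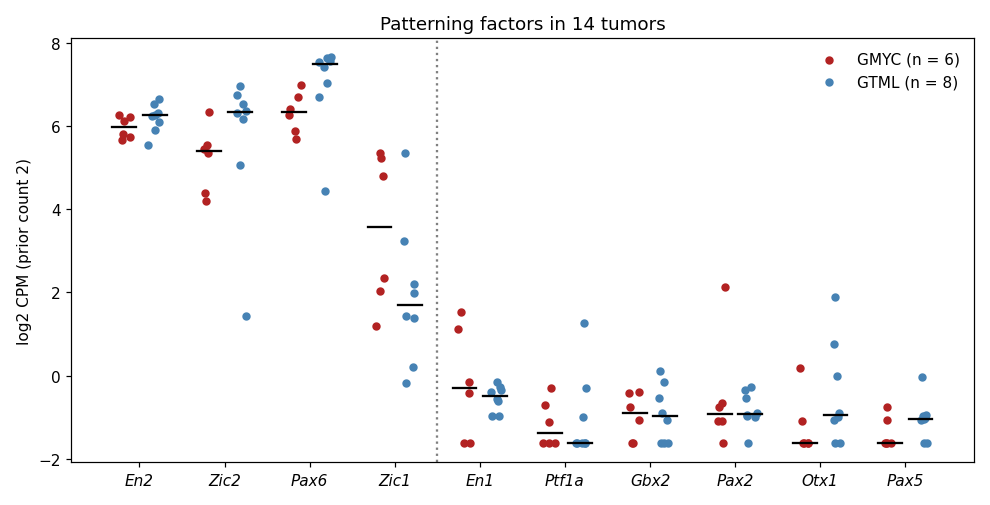
Level of each of the 10 factors in each tumor, as log2 CPM with a prior count of 2 on the vertical axis. Each point is 1 tumor, the bars are medians, and the dotted line separates the 4 factors that entered the fit from the 6 that did not. En2 lay in a narrow band in both models, Zic1 spread widely in both, and 1 GTML tumor, number 4, lay far below the rest for Zic2 and Pax6.

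Per kilobase of exon, which allows genes to be compared, the median over the 14 tumors was 20.5 CPM for Zic2, 20.3 for En2, 9.85 for Pax6 and 0.705 for Zic1. Zic2 and En2 could not be ordered, since the range of Zic2 (0.822 to 42.9) enclosed that of En2 (13.2 to 28.3). Pax6 ranged from 1.84 to 17.2 CPM per kilobase and overlapped both. The medians of the other 6 were at most 0.162 (En1), with 0.0845 for Gbx2, 0.0378 for Pax2, 0.0273 for Otx1, 0.0172 for Pax5 and 0 for Ptf1a. At 0 to 25 counts per library, these 6 cannot be ordered among themselves. For scale, Otx2, which determines forebrain and midbrain and is also a photoreceptor regulator, had a median of 76.5 CPM per kilobase.

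En2, the engrailed homeobox factor that persists in the cerebellum after the organizer has gone, was the steadiest member. It had a lowest, median and highest value of 50.6, 62.5 and 76.8 CPM in the 6 GMYC tumors and of 46.6, 76.2 and 100.1 CPM in the 8 GTML tumors. GTML tumors 1, 2, 3 and 5 lay above every GMYC tumor and GTML tumor 4 below, so the models overlapped. The log2 fold change came to 0.24 (standard error, SE, 0.166, adjusted p = 0.301, edgeR), and an exact permutation test of log2 CPM gave p = 0.215 unadjusted. The SD of log2 CPM within models was 0.32, at the 28.0th percentile of the genes tested, and the highest tumor had 2.15 times the CPM of the lowest.

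Otx2, the partner of Otx1 and the opponent of Gbx2 at the border, varied less still. It ran from 237 CPM in GTML tumor 2 to 377 CPM in GTML tumor 1, with a within-model SD of 0.21 (9.56th percentile), and its log2 fold change came to 0.03 (SE 0.111, adjusted p = 0.849, edgeR). En2 and Otx2 were thus both present in all 14 tumors at levels that differed little from tumor to tumor.

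Pax6, the paired-box factor of the granule lineage, had the smallest p of the 4 fitted factors with edgeR. That of Zic1 was smaller with limma-voom (unadjusted 0.0929 against 0.138) and with the exact permutation test (0.141 against 0.194). Pax6 was at 51.2, 81.0 and 127 CPM (lowest, median, highest) in GMYC tumors and at 21.5, 179 and 202 CPM in GTML tumors. Of the 8 GTML tumors, 6 lay above the highest GMYC tumor, GTML tumor 3 lay inside the GMYC range at 103 CPM, and GTML tumor 4 lay below it. The log2 fold change came to 0.85 (SE 0.358, adjusted p = 0.0969, edgeR), and the exact permutation test of log2 CPM gave p = 0.194. Leaving out GTML tumor 4 changed the call: the log2 fold change became 1.01 (SE 0.214, adjusted p = 0.00901), and no other single tumor did so. On the higher side of the small nucleolar RNA split Pax6 differed by 0.95 (adjusted p = 0.322), and on the lower side by 0.90 (adjusted p = 0.342).

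Zic2, the zinc finger factor of dorsal neural progenitors, had the same arrangement. It was at 17.9, 42.1 and 80.3 CPM in GMYC tumors and at 2.37, 80.4 and 123.7 CPM in GTML tumors. GTML tumors 2, 5, 6 and 7 lay above all GMYC tumors, and GTML tumor 4, with 13 counts, lay below them. The log2 fold change came to 0.82 (SE 0.530, adjusted p = 0.262, edgeR), and the exact permutation test gave p = 0.611. Without GTML tumor 4 it was 1.01 (SE 0.338, adjusted p = 0.0456), and with limma-voom 0.46 (adjusted p = 0.667). The range over tumors was 52.3-fold and the within-model SD was 1.48, at the 97.9th percentile. Within the sides of the small nucleolar RNA split the log2 fold change came to 0.77 (adjusted p = 0.385) for the higher share and 1.81 (adjusted p = 0.207) for the lower.

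**Figure D2:**
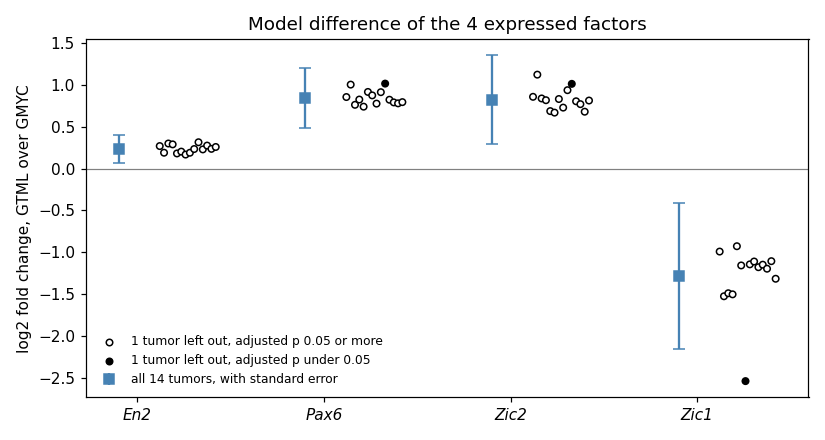
Log2 fold change of the 4 factors that were fitted, GTML over GMYC. Squares are the fit to all 14 tumors with its standard error, and circles are the 14 fits that each left out 1 tumor. Filled circles mark an adjusted p under 0.05, which occurred once each for Pax6 and Zic2 (without GTML tumor 4) and once for Zic1 (without GTML tumor 1).

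The protein-coding genes whose pattern over the 14 tumors was most like that of Zic2 were its chromosomal neighbour Zic5, with a Pearson r of 0.988, and Boc, a hedgehog co-receptor, with 0.928, of 15333 searched. Those most like Pax6 were Zic2 itself (r = 0.904) and Gm10837 (0.890). For En2 they were Jmy (0.802) and Gtf2ird2 (0.787), and for Zic1 Map1lc3b (0.782) and Rnf114 (0.776). These are the highest of many values and carry no test.

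Zic2 and Zic5 were examined further as a pair. It was chosen because of this correlation, so its values are given as a description. Zic5 ran from 7.06 to 75.8 CPM in GMYC tumors and from 1.09 to 92.3 CPM in GTML tumors, and the log2 CPM of both genes rose and fell together in each model. Over 14 tumors Spearman's rho was 0.978, and Pearson's r was 0.982 within GMYC (n = 6) and 0.998 within GTML (n = 8). Without the 2 tumors farthest from the median of Zic2, r was 0.975.

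Zic2 and Pax6, a pair chosen in the same way and so not tested either, had r = 0.904 and rho = 0.873 over the 14 tumors. Within GTML r was 0.992, and without the 2 farthest tumors of that model it was 0.739. Within GMYC r was 0.414, and without the 2 farthest tumors of that model, numbers 5 and 6, it was 0.872. Without GTML tumor 4, r over the other 13 tumors was 0.800.

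**Figure D3:**
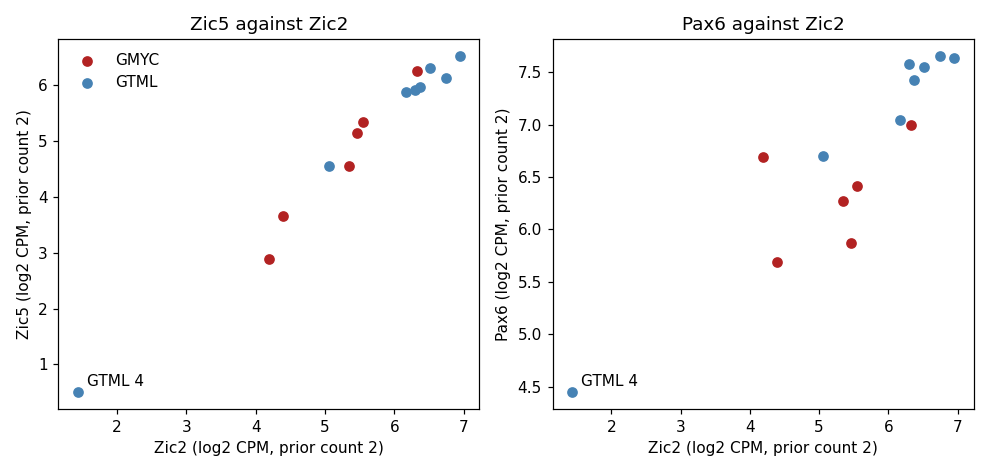
Zic5 and Pax6 against Zic2, each axis in log2 CPM with a prior count of 2, 1 point per tumor. Zic5 followed Zic2 in both models (r = 0.988). For Pax6, r with Zic2 was 0.992 in GTML tumors, with GTML tumor 4 at the low end of both, and 0.414 in GMYC tumors. Without the 2 tumors of each model farthest from its Zic2 median, r was 0.739 in GTML and 0.872 in GMYC.

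GTML tumor 4 was the lowest of the 14 tumors for En2, Pax6, Zic2 and Zic5. Pax3, a dorsal neural tube factor, had 3 counts there and 264 or more in the other GTML tumors, and Boc had 5 counts against 54 or more. Pax3 was also low in GMYC tumors 4, 5 and 6, at 31, 46 and 52 counts, with 274 or more in the other GMYC tumors. Boc had 34 counts or more in every GMYC tumor. In GTML tumor 4 Otx2 was not low, at 370 CPM, and the photoreceptor regulator Crx was at 297 CPM. These genes were chosen after their values were seen. The tumor's overall profile did not stand apart, its median rho being 0.942 against its own model and 0.928 against GMYC. Whether its cell composition plays a part was not tested. Its summed granule neuron markers were the highest of the GTML tumors, at 677 CPM, and Gabra6 had 1 count and Cbln3 6.

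Zic1, which cerebellar granule cells keep expressing after they mature, behaved differently from Zic2. In GMYC tumors 1 to 6 it was at 37.4, 1.97, 4.73, 3.77, 40.8 and 27.7 CPM. In GTML tumors 1 to 8 it was at 40.3, 2.27, 0.830, 3.64, 2.37, 4.26, 0.565 and 9.15 CPM. GMYC tumors 1, 5 and 6 and GTML tumor 1 were thus high, and the other 10 tumors were at 9.15 CPM or below in both models, so the groups overlapped. The log2 fold change came to -1.29 (SE 0.871, adjusted p = 0.289, edgeR), and the exact permutation test of log2 CPM gave p = 0.141 unadjusted. The within-model SD of 1.79 was at the 99.5th percentile.

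The call of Zic1 changed with GTML tumor 1. Without that tumor Zic1 was lower by a log2 fold change of -2.54 (SE 0.748, adjusted p = 0.0266), and without GMYC tumor 5 it was -0.93. The small nucleolar RNA split gave opposite directions: 0.85 (adjusted p = 0.820) among the 6 tumors of higher share and -3.29 (adjusted p = 0.0233) among the 2 GMYC and 6 GTML tumors of lower share. The interaction of model and split was 4.11 on the log2 scale (unadjusted p = 0.0194, adjusted p = 0.267, edgeR), and 0 of all genes passed that test after adjustment, against 3180 at an unadjusted p under 0.05.

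Markers of mature granule neurons were given beside Zic1 because those cells express it. Their summed level was 331 to 676 CPM in GMYC tumors and 441 to 677 CPM in GTML tumors, with 1 of the 9 tested of 10 genes higher in GTML and 2 lower. Gabra6, a granule neuron receptor subunit, had 279 counts in GMYC tumor 1 and 61 in GMYC tumor 3. In the other high tumors of Zic1 it had 0 counts in GMYC tumors 5 and 6 and 4 in GTML tumor 1. The summed list was at 331 CPM in GMYC tumor 5, the lowest of that model, at 564 CPM in GMYC tumor 6 and at 479 CPM in GTML tumor 1, so it did not follow Gabra6. The part of granule neurons in the level of Zic1 was not tested.

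**Figure D4:**
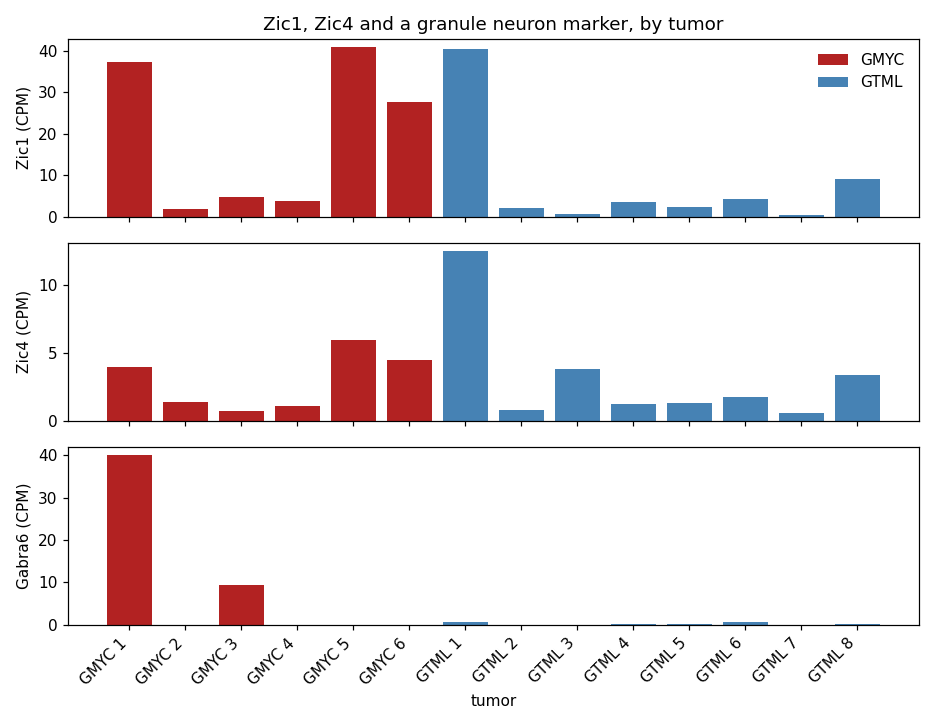
Zic1, Zic4 and the granule neuron marker Gabra6 in each tumor, as bars from 0 in CPM. Zic1 was high in GMYC tumors 1, 5 and 6 and GTML tumor 1, the same 4 tumors had the highest Zic4, and Gabra6 was high in GMYC tumors 1 and 3.

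Zic4, which lies next to Zic1 and is transcribed away from it, ran from 0.763 to 5.94 CPM in GMYC tumors and from 0.565 to 12.5 CPM in GTML tumors, and its log2 fold change came to 0.11 (SE 0.661, adjusted p = 0.918, edgeR). Over 14 tumors its r with Zic1 was 0.766 and rho was 0.679, given as a description because the pair was chosen after its values were seen. It was 0.910 within GMYC and 0.758 within GTML. In GTML the relation rested on the 2 farthest tumors, numbers 1 and 7, without which r was 0.0127. The annotated exons of the 2 genes share 60 bases on opposite strands, and the handling of strand in the counting is not stated, so reads from that stretch cannot be told apart. Zic1 and Zic2 themselves had r = -0.22 over 14 tumors (permutation p = 0.472, adjusted over the 4 pairs correlated 0.472) and rho = -0.42 (permutation p = 0.137, adjusted 0.137).

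The promoters of Zic1, Zic4 and Zic5 are shown as the 250 bases before each annotated start in RefSeq (GRCm38.p6). Zic2, the co-varying neighbour of Zic5, had no entry and is not shown. That of En1, which is not a neighbour of these, is added and held the most matches among the factors found. They are shown because the models differ in MYC and MYCN, whose partner MAX binds the letters CACGTG with them. Capitals mark CACGTG, which reads the same on both strands. The windows are chr9:91365769-91366018 (minus strand) for Zic1, chr9:91368722-91368971 (plus) for Zic4, chr14:122465659-122465908 (minus) for Zic5 and chr1:120602237-120602486 (plus) for En1.
Zic1: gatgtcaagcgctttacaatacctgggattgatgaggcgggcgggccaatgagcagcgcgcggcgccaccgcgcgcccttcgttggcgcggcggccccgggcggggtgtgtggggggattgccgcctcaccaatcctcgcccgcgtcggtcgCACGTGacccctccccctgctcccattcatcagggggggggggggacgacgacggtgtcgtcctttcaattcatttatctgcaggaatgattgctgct
Zic4: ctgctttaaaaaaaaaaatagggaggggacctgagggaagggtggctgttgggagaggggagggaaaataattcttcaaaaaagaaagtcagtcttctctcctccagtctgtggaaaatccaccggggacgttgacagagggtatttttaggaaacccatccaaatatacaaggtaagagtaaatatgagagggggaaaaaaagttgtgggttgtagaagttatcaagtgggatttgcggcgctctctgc
Zic5: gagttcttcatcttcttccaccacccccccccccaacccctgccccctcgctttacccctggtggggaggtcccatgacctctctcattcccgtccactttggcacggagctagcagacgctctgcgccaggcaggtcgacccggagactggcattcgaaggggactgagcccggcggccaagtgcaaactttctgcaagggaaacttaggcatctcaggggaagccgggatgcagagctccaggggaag
En1: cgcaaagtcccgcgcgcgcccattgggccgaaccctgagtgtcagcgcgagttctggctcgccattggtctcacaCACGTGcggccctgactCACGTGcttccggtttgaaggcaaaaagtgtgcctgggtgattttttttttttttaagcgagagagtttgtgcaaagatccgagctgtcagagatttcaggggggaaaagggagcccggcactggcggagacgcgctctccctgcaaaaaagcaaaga
Of the 10 factors, 7 were matched, with 10 promoters between them. CACGTG stood once in the window of Zic1, 98 bases before the start, 2 times in that of En1 and once in that of Gbx2, and in none of Pax2, Pax5, Pax6 or Ptf1a. Of all 32851 promoters of this length, 6.0% held it. TAATCC, the letters that OTX2 and CRX bind, was searched on both strands and stood in none of the 10, against 6.3% of all. The starts of Zic1 and Zic4 lie 3204 bases apart. A match in letters is a description of the sequence only.

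The 6 remaining factors had few counts in nearly all tumors, and each is given as counts. En1, the early organizer partner of En2, had 4, 3, 0, 0, 16 and 13 counts in GMYC tumors 1 to 6 and 1 to 3 counts in every GTML tumor. GMYC tumors 5 and 6 were above the other 12 tumors. An exact permutation test of log2 CPM gave p = 0.486, and without GMYC tumor 5 the difference in log2 CPM went from -0.34 to 0.0038.

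Pax2, which acts with En1 at the organizer and later marks GABAergic interneuron progenitors, had 25 counts (4.02 CPM) in GMYC tumor 5 and at most 3 in each of the other 13 tumors. GMYC tumor 5 also had the most En1 and Zic1 of all 14, but by small margins. En1 had 16 counts there and 13 in GMYC tumor 6, and Zic1 was at 40.8 CPM there and 40.3 CPM in GTML tumor 1. Pax5, the paralog of Pax2, had at most 3 counts in any tumor and was at 0 in 6 of them. The exact permutation test of log2 CPM gave p = 0.706 for Pax2 and 0.199 for Pax5.

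Gbx2, the hindbrain counterpart of Otx2 at the border, had 0 to 3 counts in GMYC tumors and 0 to 4 in GTML tumors, with p = 0.875 by the same exact permutation test. In no tumor did it reach 1 CPM, while Otx2 was at 237 CPM or more. Otx1, the paralog of Otx2, had 6 counts in GMYC tumor 4 and at most 1 in the other GMYC tumors. In GTML it had 21 counts in tumor 2, 7 in tumor 6, 4 in tumor 3 and at most 1 in the others. The models overlapped, and the exact permutation test gave p = 0.178, with a difference in log2 CPM of 0.79 (GTML minus GMYC) that was 0.45 without GTML tumor 2.

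Ptf1a, the determinant of the GABAergic lineage, was at 0 in 8 of 14 tumors and had 11 counts in GTML tumor 7, with at most 3 elsewhere (exact permutation p = 0.821). No difference between models was detected for these 6 factors. Exons of Gbx2, Pax5 and Ptf1a overlap annotated antisense genes, so their few reads carry the same limit on strand as those of Zic1.

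Other regional and lineage factors were counted in 5 lists of 112 genes, of which 72 were tested. Of these, 15 were higher in GTML (20.8%, where 11.5% of all genes tested were) and 5 were lower (6.94%, against 9.71%). Of the 15, 6 (Fgf8, Fgf17, Pax7, Lmx1a, Neurog2 and Vax1) had no GMYC tumor above 1 CPM and so entered the test only through the model in which they were high, and their values are given as a description. Among the 65 list genes with a GMYC tumor above 1 CPM, 9 were higher (13.8%), against 9.6% of all such genes. The median log2 fold change came to 0.44 over the 20 tested genes of the organizer list, 0.45 over the 20 of the rhombic lip list, 0.26 over the 18 of the ventricular zone list, 1.33 over the 4 tested Hox genes and 0.04 over the 11 forebrain and midbrain genes. The median over all genes tested was 0.04. Outside the Hox list, the list medians include the 6 genes that entered through GTML alone and were not recomputed without them. They carry the same limit and are given as a description. Markers of other cells also differed between models: 4 of 9 endothelial and blood genes were lower in GTML (summed 132 to 219 CPM in GMYC, 115 to 237 in GTML) and 6 of 10 photoreceptor identity genes were higher (782 to 965 CPM in GMYC, 415 to 1945 in GTML). The photoreceptor count was also 6 with DESeq2 and with limma-voom without GTML tumor 2. It fell to 1 with limma-voom on all tumors and to 0 when the fit included the small nucleolar RNA split or the replicate block. Their part in the levels of the factors was not tested.

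In the organizer list 4 genes were called higher in GTML and 1 lower, and 3 of the 4 are among the 6 that entered through GTML alone. Pax7, a dorsal midbrain paired-box factor, ran from 0 to 0.843 CPM in GMYC and from 0.974 to 11.8 CPM in GTML, without overlap. Gbx1, the paralog of Gbx2, ran from 0.643 to 1.83 CPM in GMYC and from 1.66 to 6.40 CPM in GTML (1.55, SE 0.378, adjusted p = 0.0126), at low levels in both. The organizer signals Fgf8 and Fgf17 were under 1 CPM in every GMYC tumor and had GTML medians of 1.77 and 1.67 CPM, and Wnt1 stayed below the filter. Efna5, an ephrin of the midbrain, fell by 1.78 on the log2 scale (SE 0.456, adjusted p = 0.0149).

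In the rhombic lip list 4 genes were called higher and 2 lower. Nhlh2, a bHLH factor of postmitotic neurons, ran from 1.58 to 13.8 CPM in GMYC and from 6.19 to 108 CPM in GTML (log2 fold change 3.34, adjusted p = 0.00419). Barhl1, a homeobox factor of granule precursors, was higher by 1.63 (adjusted p = 0.00937), as was Tbr1 (1.63, adjusted p = 0.0457), and Lmx1a had medians of 0.284 CPM in GMYC and 2.49 CPM in GTML. Pou4f1, a POU factor of sensory and hindbrain neurons, was at 54.9 CPM (median) in GMYC and 1.57 CPM in GTML (-4.37, adjusted p = 0.00279), although GMYC tumor 2 had 3 counts. Neurod1 was called lower with a small change of -0.23 (adjusted p = 0.0426). Atoh1, which specifies the rhombic lip, had at most 3 counts in any tumor.

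In the ventricular zone list 4 genes were called higher and 1 lower. Neurog2, a proneural factor, had 9 counts over the 6 GMYC tumors and 158 over the 8 GTML tumors, without overlap. Foxp4 was higher by 0.94 (adjusted p = 0.0111), with 7 of 8 GTML tumors above every GMYC tumor, and Foxp1 by 0.47 (adjusted p = 0.0373). Gata2 was higher by 1.66 (adjusted p = 0.0406). Olig2, an oligodendrocyte and progenitor factor, fell by 2.35 on the log2 scale (adjusted p = 0.0311).

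Of the Hox genes, which mark rhombomeres behind the cerebellum, 4 of 18 in the table were tested and Hoxc5 was higher (3.06, SE 0.928, adjusted p = 0.0302), with 24 counts over GMYC and 221 over GTML tumors. In the forebrain and midbrain list Dmrta2 was higher by 1.48 (adjusted p = 0.0409), and Vax1 had 3 counts over the 6 GMYC tumors and 63 over the 8 GTML tumors. The factors with these changes were mostly at a few CPM. Without the filter on low counts, the median log2 fold change over all 32849 genes was 0.18, against 0.04 with it. The shares called over all genes are not matched for level, so they are a loose background for factors this low.

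**Figure D5:**
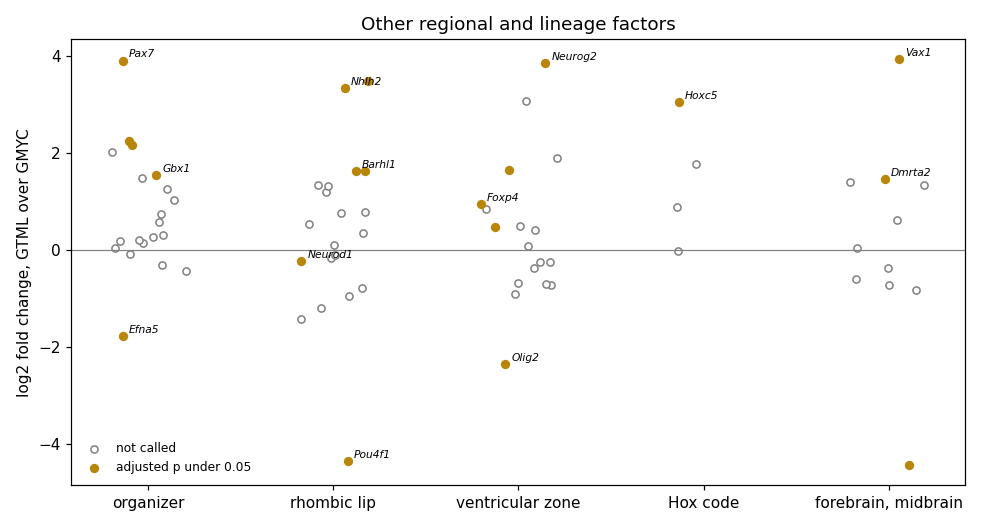
Log2 fold change, GTML over GMYC, of the 72 tested genes in 5 lists of regional and lineage factors, 1 point per gene. Filled points had an adjusted p under 0.05, and the labelled genes are among those with the smallest p per list and direction. Of the filled points, 15 lie above 0 and 5 below. Of the 15, 6 had no GMYC tumor above 1 CPM and so entered the test only through GTML.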

How the data were processed

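RNA-seq counts of 14 tumors were analysed. The authors aligned Ion Torrent reads to mm9 with STAR and Bowtie and counted them per gene with featureCounts and GENCODE, and deposited whole-number counts without normalization. The submitters' processing notes name STAR 2.4.0, Bowtie2 2.2 and Subread 1.5.2. A further 18 per-sample columns, whose names match no label, were not used, so the onalespib and Arf knockout comparisons are not analysed here. Total counts ran from 4602294 to 7279811 per tumor.

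Symbols and exon lengths came from a GRCm38 annotation matched by Ensembl identifier (32620 of 37310 genes). Promoter sequences came from RefSeq (GRCm38.p6). GTML was set against GMYC by the quasi-likelihood test of edgeR 4.0.16 (R 4.3.3), with TMM factors and Benjamini-Hochberg adjustment over all genes whose CPM passed 1 in 3 or more tumors. A gene was called at an adjusted p under 0.05. Factors under that filter were compared by exact two-sided permutation tests of log2 CPM with a prior count of 2, unadjusted, and Python 3.11.15 with scipy 1.17.1 gave correlations. The labels do not say that biopsies came from separate animals, so p-values measure the spread between these samples.

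The members and lists were chosen with earlier results of these data known. Genes were named by rule: all 10 members, up to 2 called genes per list and direction with the smallest p, Myc, Mycn and Otx2, and the 2 protein-coding genes most like each expressed member. Some genes that the rule names are not reported here. Other genes named were chosen after their values were seen. Of 4 planned pairs, only Zic1 and Zic2 both passed the filter, and the other 3 pairs correlated were added. Alternatives were DESeq2 1.42.0, limma-voom (limma 3.58.1), other filters and normalizations, the replicate number as a block, the small nucleolar RNA split, a granule marker covariate, thinned counts and leaving out each tumor. The code was tested on simulated counts.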

Additional observations from a re-analysis of the deposited data

Results flagged for a closer look

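Dixon's criterion, applied to CPM within each model for the members and the other named genes, singled out 13 values in 52 groups. Its rate of 1 in 20 groups, or 2.6, holds for normally distributed values. CPM of genes with few counts are skewed, so the 13 cannot be set against that rate. GTML tumors 1 and 2 held 3 each.

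Among the 10 factors, Zic1 was at 40.3 CPM in GTML tumor 1, and the next GTML tumor had 9.15 CPM. Pax2 was at 4.02 CPM in GMYC tumor 5, with 0.305 CPM in the next GMYC tumor. Otx1 reached 3.41 CPM in GTML tumor 2 and 0.807 CPM in GMYC tumor 4, against 1.35 and 0.143 CPM in the next tumor of each model. Ptf1a was at 2.07 CPM in GTML tumor 7, on 11 counts, and Pax5 was at 0.645 CPM in GTML tumor 5, on 3 counts.

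Among their paralogs, Zic4 was at 12.5 CPM in GTML tumor 1, with 3.82 CPM in the next GTML tumor. Otx2 was lowest of the GMYC tumors in tumor 4, at 249.5 CPM, and the next had 318 CPM.

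Among the other regional factors, Nhlh2 reached 108.1 CPM in GTML tumor 2 and 13.8 CPM in GMYC tumor 5. Pou4f1 reached 7.63 CPM in GTML tumor 2. In GMYC tumor 2 it had the lowest value of that model, 0.421 CPM, where the next had 44.2 CPM. Vax1 was at 4.22 CPM in GTML tumor 1.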

How the results depend on the processing

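The 4 fitted factors stayed uncalled under every alternative except 3. Zic1 was lower among tumors of lower small nucleolar RNA share, which called 1 member, and without GTML tumor 1. Pax6 and Zic2 were higher without GTML tumor 4. Leaving out 1 tumor gave 0 to 2 members higher and 0 to 1 lower. Zic1 reversed to 0.85 among tumors of higher share. Over the leave-one-out fits the log2 fold change was 0.17 to 0.31 for En2, 0.74 to 1.01 for Pax6, 0.67 to 1.12 for Zic2 and -2.54 to -0.93 for Zic1. Under the other alternatives it was 0.17 to 0.50 for En2, 0.54 to 0.95 for Pax6, 0.29 to 1.81 for Zic2 and -3.29 to 0.85 for Zic1, with limma-voom and the replicate block giving 0.46 and 0.41 for Zic2.

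For the factors under the filter, the leave-one-out difference in log2 CPM ran from -0.63 to 0.0038 for En1, -0.090 to 0.17 for Gbx2, 0.45 to 1.07 for Otx1, -0.53 to 0.22 for Pax2, 0.20 to 0.47 for Pax5 and -0.18 to 0.32 for Ptf1a. Signs turned without GMYC tumor 5 for En1 and Pax2, without GMYC tumor 5 or 6 or GTML tumor 6 or 7 for Gbx2, and without GTML tumor 7 for Ptf1a. Otx1 reached an unadjusted exact permutation p of 0.0326 without GMYC tumor 4. All 6 had 25 counts or fewer per library.

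Over all genes, 2418 were higher and 2041 lower. Leaving out 1 tumor gave 1433 (without GMYC tumor 3) to 3264 (without GTML tumor 2) and 1184 to 3166 (same tumors). The lower small nucleolar RNA share gave 1328 and 1334, the higher share 0 and 2 with edgeR (1355 and 1065 at an unadjusted p under 0.05), and a term for the split 1428 higher. The stricter rule (adjusted p under 0.01, absolute log2 fold change above 1) gave 444 and 232, protein-coding genes only 1360 lower, and limma-voom without GTML tumor 2 3359 lower. Of the 5 lists, 15 genes were higher and 5 lower, with 9 to 17 and 3 to 6 when 1 tumor was left out, 9 higher when only genes with a GMYC tumor above 1 CPM were counted (added after the data were seen), 5 higher with the lower share, 0 and 0 with the higher, 5 and 2 under the stricter rule, and 3 lower with limma-voom, filterByExpr or a CPM above 1 in at least 6 tumors. The cause was not tested.

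Same-numbered tumors share only a number. The correlation of their deviations from the group means ran from -0.21 to 0.24 over 6 numbers. The replicate block gave 164 genes higher and 87 lower over all genes, 1 higher and 0 lower in the lists and 0 members in either direction.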

Other observations

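Olig3, a hindbrain progenitor factor, had 392 counts (63.6 CPM) in GTML tumor 2, 11 in GTML tumor 1 and at most 3 in every other tumor, and was chosen after its values were seen. Foxp2 had 565 counts (91.7 CPM) in the same tumor and at most 122 elsewhere. That tumor also had the most Otx1 and Pax6 and the least Otx2 of the 14, with Crx at 97.4 CPM against 297 CPM or more in the others.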
